A study of Mus musculus with 7 samples.

Results

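Pyramidal neurons of hippocampal area CA1 were taken from single-nucleus RNA sequencing as nuclei that carried transcripts of 3 marker genes, and 2089 of the 32312 nuclei within the depth limits met the rule (6.47%). The rule asked for at least 2000 transcripts with an upper limit against multiplets (CA1 nuclei held 2017 to 49718), more than 400 genes per nucleus, at least 1 transcript of *Fibcd1*, and at least 3 transcripts summed over *Fibcd1*, *Mpped1* and *Wfs1*. It allowed at most 1 transcript of *Prox1*, at most 1 summed over *Gad1* and *Gad2*, and at most 2 of *Slc17a6*, which mark dentate granule neurons, interneurons and other excitatory neurons. The levels of these 7 genes in CA1 nuclei therefore describe the choice of nuclei and are not results.

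CA1 pyramidal neurons are the excitatory output cells of the hippocampus proper. They receive the Schaffer collaterals of CA3 neurons on their apical dendrites and direct input from the entorhinal cortex, and they project to the subiculum and to the cortex. CA1 is known for its role in spatial and episodic memory and for early loss of synapses and neurons in Alzheimer's disease. Cells of its layer differ with depth, with superficial neurons near the stratum radiatum and deep neurons near the stratum oriens, and along the dorsal to ventral axis.

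The mice were C57BL6/J animals of 10 months, and nuclei of both sexes were barcoded in 4 groups. The wild-type groups drank plain water (WT-veh) or water with PMX205 (WT-PMX), and the groups that carried the transgene likewise formed Arc-veh (plain) and Arc-PMX (with PMX205). Arctic (Arctic48) mice are hemizygous for a human APP transgene with the Swedish, Indiana and Arctic mutations, and the wild-type mice were their littermates. The promoter that drives the transgene is not given in the sources used here. PMX205, a cyclic hexapeptide that blocks the complement receptor C5aR1, was dissolved to 20 μg/ml in what the mice drank, and vehicle was water alone. Treatment lasted 12 weeks per the labels, whereas the results and supplement of the study describe a shorter course at this age. All mice were housed singly. The labels place the transcription inhibitors Actinomycin D and Triptolide in the perfusion, whereas the study's methods name them only for the isolation of microglia, so whether the tissue used for nuclei met them is unsettled. A well of the first barcoding round held nuclei from part of the hippocampus of 1 mouse, so the 24 wells (6 per group, females F1 to F3 and males M1 to M3) were the replicates.

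CA1 nuclei came from all 24 wells and all 7 sublibraries, with 39 (Arc-veh F1) to 163 (WT-veh F2) per well and 271 to 329 per sublibrary. A CA1 nucleus held a median of 15396 transcripts and 3970 genes, and the CA1 transcripts of a well summed to between 271035 and 3949061. Of 2080 distinct CA1 barcodes, 9 occurred in more than 1 sublibrary. The study left out 1 wild-type sample as being of Arctic genotype and did not name its well, so all wells were kept under their labels here. Sex followed the labels in CA1 nuclei, with log2 differences of males minus females of -8.05 for *Xist* and 5.59 for *Ddx3y*. The vehicle wells WT-veh F3 and M3 held few glial nuclei, and the counts of genes called within CA1 are also given without them.

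The CA1 label was checked against genes that the rule did not use, as mean CPM (a gene's transcripts scaled to a fixed total of the summed nuclei of a well) over 24 wells. *Man1a*, a mannosidase of the Golgi, was at 557 ± 98.5 CPM (SD, n = 24 wells) in CA1 nuclei, at 164 in nuclei chosen by a CA3 rule (6200 nuclei) and at 32.2 in nuclei chosen by a dentate granule rule (3440 nuclei, with at least 3 transcripts of *Prox1*). *Gpr161*, a receptor of the primary cilium, was at 86.9 ± 18.7, 30.9 and 3.48 CPM in the same order. *Pou3f1*, a POU transcription factor, was low at 7.41 ± 2.98 CPM in CA1 and lower in CA3 (2.23) and dentate nuclei (0.627). Each of these 3 genes lay higher in CA1 than in both of these sets in 24 of 24 wells. This check does not cover nuclei that lack *Fibcd1* but hold the other marker transcripts, which are given below. Another marker on the list, *Lct* (lactase), went the other way, with 8.86 CPM in CA1, 7.03 in CA3 and 57.0 in dentate nuclei. Genes of other types were near the floor in CA1 nuclei: *Csf1r* of microglia was at 0.654 and *Aqp4* of astrocytes at 2.60 CPM.

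**Figure D1:**
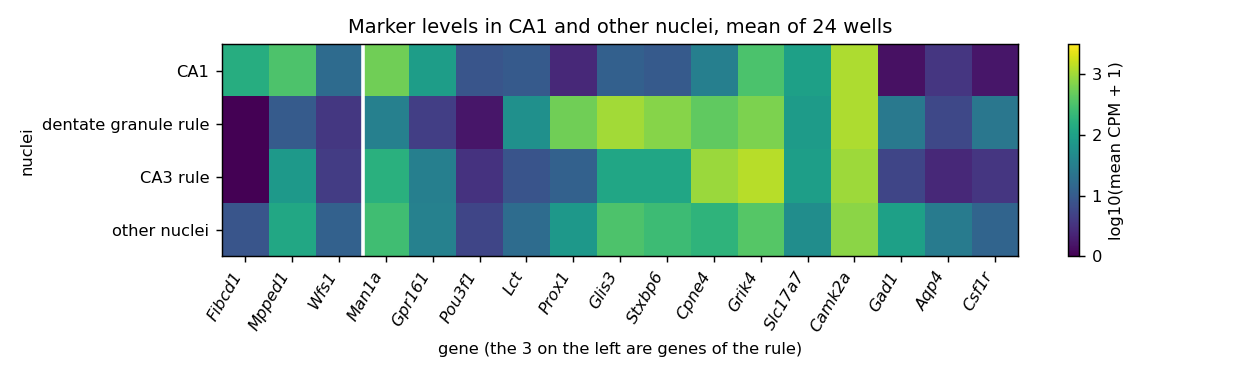
Mean level over 24 wells, as log10(mean CPM + 1) in colour, of 17 marker genes (columns) in CA1 nuclei, in nuclei of the dentate granule and CA3 rules and in all other nuclei (lines of the map). The rule asked for transcripts of the 3 genes left of the white line and limited *Prox1* and *Gad1*, whose low CA1 levels it fixed. The other rules likewise fixed high *Prox1* in dentate and *Cpne4* in CA3 nuclei. *Man1a* (557 CPM) and *Gpr161* (86.9), which no rule used, are also brightest in CA1 nuclei.

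Because depth differed between the sets (medians of 15396, 12221.5 and 9140 transcripts in CA1, CA3 and dentate nuclei), shares of nuclei with a transcript were compared after each nucleus was thinned to 2000 transcripts. *Man1a* was then found in 56.4% of CA1, 18.5% of CA3 and 3.52% of dentate nuclei, against 89.9%, 48.8% and 10.3% without thinning. *Gpr161* was found in 15.03%, 5.00% and 0.407% after thinning, with the dentate share taken as the background (63.8%, 20.3% and 2.70% without thinning). The dentate rule also took in some glial nuclei, which is why a version of it without them (2683 nuclei) was added after the values were seen. No such version was made for the CA3 set. After thinning, the microglial gene *Csf1r* was found in 0.0479% of CA1, 0.435% of CA3 and 1.98% of dentate nuclei. The part of glial nuclei in the CA3 values was not tested.

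Further genes set the CA1 nuclei apart from their neighbours, as levels with no test. *Hs6st3*, a heparan sulfate sulfotransferase, was at 4288 CPM in CA1, 1459 in CA3 and 440 in dentate nuclei. *Pex5l*, which regulates traffic of HCN channels, was at 2501, 954 and 587 CPM. *Cadps2*, a priming factor of dense-core vesicles, was at 670, 289 and 96.0 CPM, and the transcription factor *Runx2* at 636, 225 and 276 CPM. These genes were higher in CA1 than in either other set in all 24 wells. Genes were picked for this description by their mean levels in these same wells, so the direction follows largely from the choice. Rarer transcripts with a like pattern were the phosphodiesterase *Pde11a* (260, 79.2 and 7.59 CPM), the metalloprotease *Adam12* (211, 29.7 and 20.7), the natriuretic peptide receptor *Npr3* (95.0, 39.4 and 5.56) and the kinase *Tnni3k* (22.2, 2.74 and 0.640). In the other direction, the guidance molecule *Sema5a* was at 6.55 CPM in CA1 against 167 in CA3 and 737 in dentate nuclei, and the vesicle protein gene *Synpr* at 19.8 against 224 and 908 CPM. The CA3 rule chose its nuclei by transcripts of *Cpne4*, *Iyd*, *Cdh24* and *Galnt3*, so the 935 CPM of *Cpne4* in CA3 nuclei describes that choice. In CA1 nuclei *Cpne4* was at 31.0 CPM. The 7 CA3 markers on the list, led by *Grik4*, summed to 450 ± 46.3 CPM (SD, n = 6 wells) in CA1 nuclei of WT-veh.

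At the edge of the rule, 255 nuclei had 1 marker transcript too few, with a sum of 2, and 296 nuclei stood just inside with a sum of 3. Their median depths were 7044 and 9777 transcripts, against 16463 in the 1793 nuclei with a sum of 4 or more. *Man1a* was at 552, 581 and 586 CPM in the nuclei just outside, just inside and further inside, and *Gpr161* at 92.6, 90.9 and 86.7 CPM. Nuclei just outside the rule were thus shallower, with levels of these genes close to those inside. Another 3099 nuclei had no *Fibcd1* but a sum of 3 or more and met the other limits. They held *Man1a* at 402 and *Gpr161* at 81.2 CPM, so *Gpr161* hardly set CA1 nuclei apart from them. *Tshz2*, on the list for subiculum and cortex, was at 812 CPM in these nuclei and at 65.0 CPM in those further inside the rule. Applied to nuclei thinned to 2000 transcripts, the rule found 142 nuclei, 141 of them members.

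The first question was whether genotype or PMX205 went with the share of CA1 nuclei. Shares by well ran from 4.49% to 8.18% (median 5.67%) with vehicle and from 4.06% to 9.32% (median 5.75%) with PMX205 in wild-type mice, and from 3.86% to 11.1% (median 6.94%) and 5.10% to 8.23% (median 5.82%) in Arctic mice. All 4 groups overlapped. Means were 5.99% ± 1.35 (SD, n = 6 wells), 6.26% ± 1.88, 6.81% ± 2.73 and 6.22% ± 1.16 in that order. No contrast of the 6 compared passed a two-sided permutation test over wells, exact for 6 against 6 wells and with 100000 resamples for 12 against 12 (p from 0.535 to 0.834, Benjamini-Hochberg adjusted p = 0.834 for each, smallest p the design allows for 6 against 6 wells 0.00216). A share of nuclei cannot tell fewer CA1 neurons from a lower yield or depth of their nuclei.

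Depth per CA1 nucleus was higher on average in the Arctic groups, but no difference passed after adjustment. The median transcripts of a CA1 nucleus, averaged over wells, were 10780 ± 3597 (SD, n = 6) in WT-veh, 13283 ± 6310 in WT-PMX, 17497 ± 6361 in Arc-veh and 15969 ± 8421 in Arc-PMX. The Arc-veh minus WT-veh difference had an exact permutation p of 0.0411 and an adjusted p of 0.232 over 6 contrasts, and Arctic minus WT groups (n = 12 each) had a permutation p of 0.0775 and an adjusted p of 0.232. Over all nuclei of a well the median depth was 6648 ± 1946 in WT-veh and 9104 ± 2987 in Arc-veh, which gave p = 0.113 by the exact test (0.437 after adjustment). The part of depth in the gene results was not tested beyond leaving out nuclei of 20000 or more transcripts (609 of the 2089).

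**Figure D2:**
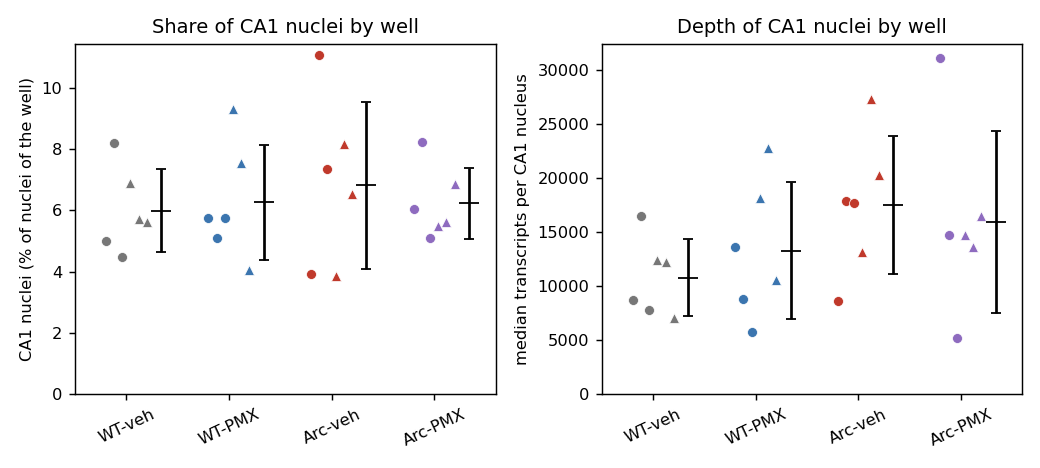
Left, CA1 nuclei as a percentage of the nuclei of each well; right, median transcripts per CA1 nucleus of each well; circles are females, triangles males, and the black mark and bar give the mean and SD of 6 wells per group. The groups overlap in share (3.86% to 11.1% over all wells), and WT-veh has the lowest mean depth (10780 transcripts).

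Transcripts of CA1 nuclei were summed per well and 9173 genes were tested with edgeR (quasi-likelihood, with a term for sex), so that the spread between wells and not between nuclei set the error. A gene was called at a Benjamini-Hochberg adjusted p under 0.05. In the contrasts of 1 group with another, no gene was called. Arc-veh minus WT-veh gave 0 calls (0% of 9173 genes, 563 at unadjusted p under 0.05, 4 calls by DESeq2 of which 3 were higher and 1 lower). Arc-PMX minus WT-veh, which shares its controls with that contrast, gave 0 calls (0%, 410 at unadjusted p under 0.05, 2 calls by DESeq2). The effect of PMX205 gave 0 calls in Arctic mice (Arc-PMX minus Arc-veh, 0%, 168 at unadjusted p under 0.05, 0 by DESeq2) and 0 in wild-type mice (WT-PMX minus WT-veh, 0%, 303 and 0 by DESeq2). The difference between these effects of PMX205 and the pooled contrast of PMX205 with vehicle also gave 0 calls each by edgeR (0%, 308 and 203 genes at unadjusted p under 0.05, 0 by DESeq2). Females and males did not differ by edgeR in Arc-veh minus WT-veh for any gene past the threshold (0 calls, 0%, 251 at unadjusted p under 0.05, 0 by DESeq2). The same tests gave 0 calls without WT-veh F3 and M3.

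With treatments pooled, 12 Arctic against 12 wild-type wells, 2 genes were called (0.0218% of 9173), 1 higher (0.0109%) and 1 lower (0.0109%), and again 1 and 1 without WT-veh F3 and M3. DESeq2 called 9 higher and 4 lower, and leaving out single wells gave 1 to 4 higher and 0 to 4 lower (0 lower without WT-PMX F1, 4 lower without Arc-PMX F1).

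*Ccnd2* fell. It encodes cyclin D2, which drives the G1 phase in dividing cells. Levels (CPM scaled by edgeR's normalization factors, here and below) ran from 23.8 to 49.2 CPM in wild-type wells (median 31.7) and from 8.86 to 35.6 in Arctic wells (median 17.3). Of the 12 Arctic wells, 11 lay below every wild-type well, and Arc-veh F1, the well with the fewest CA1 nuclei, was the exception at 35.6 CPM. Group means were 30.2 ± 5.00 CPM (SD, n = 6) in WT-veh, 35.2 ± 8.91 in WT-PMX, 20.8 ± 8.19 in Arc-veh and 15.6 ± 3.96 in Arc-PMX. The log2 fold change was -0.92 (SE 0.16, edgeR adjusted p = 0.0131), -0.87 in females and -0.97 in males. The gene lies at chr6:127125162-127152193 on the minus strand (GRCm38). With a stricter rule for CA1 nuclei (926 nuclei) the value was -0.91 and the adjusted p 0.352. The call was also lost without WT-PMX F1 (-0.88) or without sublibrary 4 (-0.83, adjusted p = 0.085).

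*Ccnd2* was not called for PMX205 within the Arctic groups. For Arc-PMX minus Arc-veh it had a log2 fold change of -0.28 (SE 0.24) and an edgeR adjusted p of 1. The median standard error over all genes in this contrast was 0.194 on the log2 scale.

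*App* was read as a check of the genotype labels. The transgene is human APP and the counts were made on a mouse reference, so transcripts of the transgene and of mouse *App* cannot be told apart. In CA1 nuclei *App* ran from 456 to 650 CPM in wild-type wells and from 526 to 840 in Arctic wells, with 9 of 12 Arctic wells above every wild-type well. Its log2 fold change was 0.35 (SE 0.07) and missed the threshold (edgeR adjusted p = 0.0540). Over all nuclei of a well it ran from 453 to 592 CPM in wild-type and from 569 to 891 CPM in Arctic wells, so the overlap there was narrow. For Arc-PMX minus Arc-veh its log2 fold change in CA1 nuclei was 0.02 (SE 0.10).

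**Figure D3:**
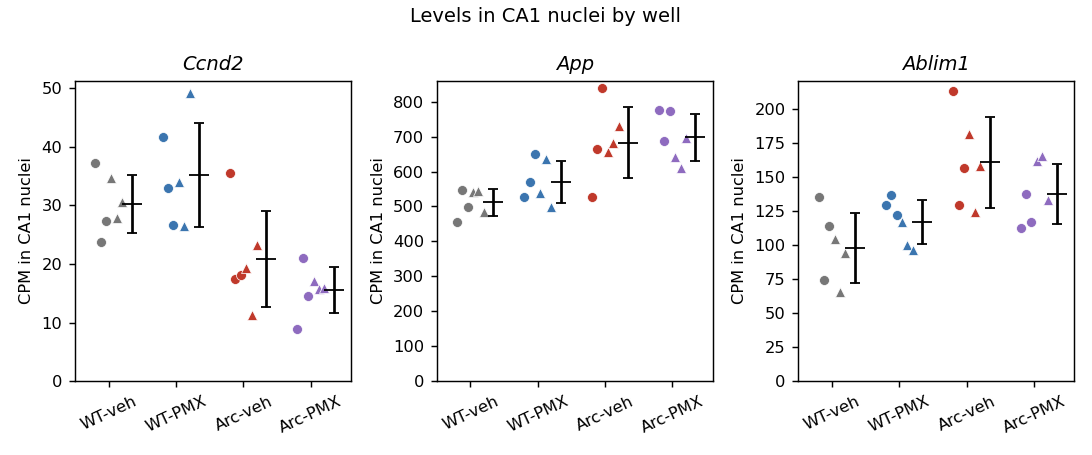
CPM in CA1 nuclei of *Ccnd2*, *App* and *Ablim1* in each of 24 wells by group, with circles for females, triangles for males and a black mark and bar for the mean and SD of 6 wells. *Ccnd2* (medians of 31.7 and 17.3 CPM in wild-type and Arctic wells) passed the test, while *App* and *Ablim1* did not.

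Genes of cholesterol synthesis and uptake formed a list that was chosen after its values had been seen, so it carries no test. Cells make cholesterol from acetyl units through HMG-CoA, mevalonate and squalene, and the transcription factor SREBP2 (*Srebf2*) raises this pathway when membrane sterol is low. Of 29 genes on the list, 20 passed the filter on low counts. For Arctic minus WT, 18 of these 20 had a log2 fold change above 0, and their median was 0.42, where all 9173 genes had a median of -0.0023 and 49.3% lay above 0. At unadjusted p under 0.05, 10 were higher and 0 lower (2.80% of all genes were higher and 2.56% lower).

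Along the pathway, *Fdft1*, which makes squalene, ran from 13.3 to 39.9 CPM in wild-type wells and from 14.2 to 39.8 in Arctic wells, with a log2 fold change of 0.57 (SE 0.16, edgeR adjusted p = 0.349). *Sqle*, which oxidizes squalene, ran from 2.22 to 10.4 CPM in wild-type and from 3.65 to 17.8 CPM in Arctic wells, with 6 Arctic wells above every wild-type well. Its means were 6.35 ± 2.66 (SD, n = 12) and 10.9 ± 3.94 CPM (log2 fold change 0.69, SE 0.22, edgeR adjusted p = 0.547). For the later enzyme *Msmo1* the log2 fold change was 0.73 (SE 0.16, edgeR adjusted p = 0.0931). *Srebf2* itself was at 61.2 ± 8.10 CPM in wild-type and 78.2 ± 11.8 in Arctic wells (0.34, SE 0.09, edgeR adjusted p = 0.301). Among the members of highest level, the sterol sensor *Scap* (-0.04, SE 0.13) and the exporter *Abcg1* (-0.27, SE 0.14) were the 2 of the list with values under 0. In vehicle mice alone, 19 of the 20 lay above 0 (50.2% of all genes) with a median of 0.44 (all genes 0.0010). For Arc-PMX minus Arc-veh 12 of 20 did (50.5% of all genes) with a median of 0.05 (all genes 0.0026). Both contrasts use the same Arc-veh wells. None of the genes named here passed the threshold in CA1 nuclei. In CA3 nuclei *Fdft1* (0.82), *Sqle* (1.01) and *Msmo1* (1.01) were called for Arctic minus WT (edgeR adjusted p from 3.77e-07 to 0.000144). *Srebf2* was not called there (0.28, edgeR adjusted p = 0.0939). In dentate nuclei *Fdft1* (0.04), *Msmo1* (0.46) and *Srebf2* (0.51) were not called. For none of these 4 genes did the effect in CA1 differ from that in CA3 past the threshold (edgeR adjusted p from 0.912 to 0.998).

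Promoters (250 bases before to 50 after a gene's start) were read from RefSeq on GRCm38.p6 for 19 of the 29 cholesterol genes, to show the letters near the start of a gene that SREBP2 is known to bind. The letters CCAAT, on either strand, which factors working with SREBP2 recognize, occurred in 16 of the 19 and in 37.4% of 32851 promoters of that length. A sterol element spelled TCACNCCAC, on either strand, occurred in *Hmgcs1* alone of the 19 and in 1.24% of all promoters. *Hmgcs1*, which makes HMG-CoA, is shown for that reason, at chr13:119690101-119690400 on the plus strand, with the sterol element in capitals.
Hmgcs1 promoter: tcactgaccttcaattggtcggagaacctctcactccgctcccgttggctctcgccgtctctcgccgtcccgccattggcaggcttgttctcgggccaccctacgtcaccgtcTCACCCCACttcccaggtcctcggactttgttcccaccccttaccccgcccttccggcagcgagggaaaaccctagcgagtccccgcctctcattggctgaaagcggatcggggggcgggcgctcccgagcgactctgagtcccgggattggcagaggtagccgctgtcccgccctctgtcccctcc
A match of letters is not a measured binding site. *Hmgcs1* was at 11.4 ± 5.66 CPM (SD, n = 12) in wild-type and 16.0 ± 5.57 in Arctic wells, with a log2 fold change of 0.61 (SE 0.20, edgeR adjusted p = 0.569), and the groups overlapped, with Arc-veh F1 at 0.

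Activity-induced genes, which neurons transcribe within minutes to hours of synaptic input, were mostly low, and 15 of 26 passed the filter. For Arctic minus WT 3 of the 15 lay above 0 (49.3% of all genes), and the median was -0.38 (all genes -0.0023). Of the 15, 0 were called (0.0218% of all genes). At unadjusted p under 0.05, 5 were lower and 0 higher (2.56% and 2.80% of all genes). In vehicle wells alone (Arc-veh minus WT-veh) the median was -0.15 (all genes 0.0010), with 4 of the 15 above 0 (50.2% of all genes). There 0 were called (0% of all genes), and 2 were lower at unadjusted p under 0.05 (3.13% of all genes). For WT-PMX minus WT-veh the median was 0.12 (all genes 0.0048), with 10 above 0 (51.2% of all genes) and 0 called (0% of all genes). The nuclear receptor genes *Nr4a1* (-0.52, SE 0.17), *Nr4a2* (-0.50, SE 0.16) and *Nr4a3* (-0.38, SE 0.16), the neurotrophin *Bdnf* (-0.67, SE 0.26) and the pentraxin *Nptx2* (-0.61, SE 0.30) were the 5 with pooled treatments, with edgeR adjusted p from 0.569 to 0.928. *Nr4a2* ran from 15.2 to 32.9 CPM in wild-type and from 7.30 to 26.1 CPM in Arctic wells, and 5 Arctic wells lay below every wild-type well. *Homer1*, *Nr4a3*, *Nr4a1* and *Per1* had the highest levels of the list, and *Homer1* (239 CPM in both genotypes) had a value of 0.00 (SE 0.09). The clock gene *Per1* had -0.26 (SE 0.25). *Fos* was at or near 0 in all wells, at 0 to 3.04 CPM. For Arc-PMX minus Arc-veh 6 of the 15 lay above 0 (50.5% of all genes), with a median of -0.03 (all genes 0.0026).

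**Figure D4:**
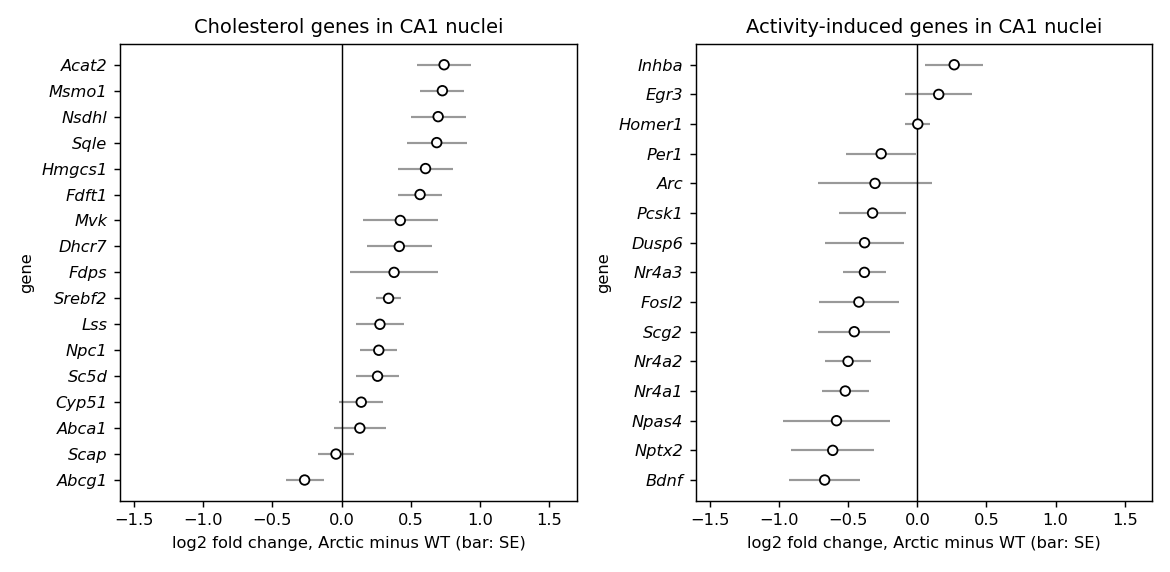
Log2 fold change of Arctic minus WT groups in CA1 nuclei (horizontal axis, bar: SE), each gene on a line of its own. Shown are 17 of the 20 cholesterol genes that passed the filter and all 15 such activity-induced genes. Of those plotted, 15 cholesterol genes lie right of 0 and 12 activity-induced genes left of it, and 0 passed the threshold. These counts do not cover the cholesterol genes that are not plotted. Of all genes tested, 49.3% had a value above 0.

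Lists of synaptic and channel genes held 0 called genes in any contrast. Of all genes, 0.0218% were called for Arctic minus WT and 0% in the other contrasts, so 0 calls in lists of this size say little about their genes. For Arctic minus WT the medians of these lists ran from -0.05 to 0.07. Of all genes, 49.3% lay above 0 for Arctic minus WT. At unadjusted p under 0.05, 2.80% of all genes were higher and 2.56% lower. Of the AMPA and NMDA receptor genes, 16 of 18 were tested, with a median of 0.02 (10 above 0, 2 higher and 0 lower at unadjusted p under 0.05). Their most abundant members *Gria1*, *Grin2a*, *Grin2b* and *Gria2*, subunits of the main excitatory receptors, had log2 fold changes of 0.02, 0.03, 0.06 and -0.10 (SE 0.05 to 0.08). Kainate and metabotropic glutamate receptor genes (13 of 14 tested) had a median of 0.07, with *Grm5* at -0.09, *Grm7* at 0.01, *Grid1* at 0.02 and *Grik2* at 0.09 (SE 0.06 to 0.09). None of these 8 subunits passed the threshold.

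Scaffolds and kinases of the postsynaptic density (21 of 22 tested, median 0.01) included *Dlg2* at -0.05, *Dlgap1* at -0.09, *Kalrn* at 0.01 and *Dlgap2* at -0.02 (SE 0.05 to 0.06). GABA receptor genes (15 of 17, median -0.05) included *Gabrb1* at 0.03, the scaffold *Gphn* at -0.08 and *Gabra2* at 0.06 (SE 0.07 to 0.09). Synaptic vesicle genes (28 of 31, median -0.02) were led by the calcium sensor *Syt1* at -0.09, *Rims1* at -0.03, *Pclo* at 0.10 and *Syn2* at 0.16 (SE 0.06). Each of these lists held 0 or 1 gene at unadjusted p under 0.05 in either direction.

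Potassium and HCN channel genes (34 of 36 tested, median 0.05, 3 higher and 0 lower at unadjusted p under 0.05) included *Kcnip4*, a partner of A-type channels with 8043 ± 1500 CPM (SD, n = 6) in WT-veh, at -0.02 (SE 0.09) and the A-type channel *Kcnd2* at 0.12 (SE 0.09). *Kcnma1* and *Dpp6* were both at 0.02 (SE 0.05 and 0.06). Sodium and calcium channel genes (29 of 31, median -0.01) had *Cacnb2* at 0.01, *Ryr3* at 0.07, *Cacna1e* at 0.03 and *Ryr2* at 0.01 (SE 0.05 to 0.08). Synaptic adhesion genes, all 41 tested, had a median of 0.03 (3 higher and 0 lower at unadjusted p under 0.05), with *Lsamp* at -0.07, *Tenm2* at 0.02, *Opcml* at 0.01 and *Cntnap2* at 0.02 (SE 0.05 to 0.10).

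Genes around amyloid precursor processing (18 of 21 tested) had a median of 0.06, with *App* as given above and *Apba2*, *Mapt* and the sorting receptor *Sorl1* at 0.03, 0.03 and 0.05 (SE 0.06 to 0.09). Calcium-buffering genes (9 of 12, median 0.02) had *Vsnl1* at 0.14, *Calm2* at -0.20 and *Hpca* at 0.06 (SE 0.09 to 0.14). Genes of the unfolded protein and integrated stress responses (15 of 30, median -0.03, 0 at unadjusted p under 0.05) had *Atf6* at 0.02, *Sel1l* at 0.03, *Canx* at -0.16 and *Hsp90b1* at -0.08 (SE 0.07 to 0.15). Interferon and antigen presentation genes were mostly too low, with 3 of 24 tested, among them *Stat2* at 0.12 (SE 0.13) and *Ifi27* at 0.75 (SE 0.26, edgeR adjusted p = 0.685).

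Complement genes matter to this design because PMX205 blocks C5aR1, and 7 of 23 passed the filter in CA1 nuclei. The most abundant were the complement inhibitor genes *Csmd1*, *Csmd3*, *Csmd2* and *Susd4*. *Csmd1* was at 6273 ± 251 CPM (SD, n = 6) in WT-veh, 5883 ± 443 in WT-PMX, 6399 ± 470 in Arc-veh and 6074 ± 574 in Arc-PMX, with a log2 fold change of 0.04 (SE 0.05) for Arctic minus WT. *Csmd3* had 0.04 (SE 0.09), *Csmd2* 0.07 (SE 0.09) and *Susd4* 0.09 (SE 0.08). The list's median was 0.04 for Arctic minus WT and -0.04 for Arc-PMX minus Arc-veh. *C5ar2* was detected by 1 transcript in all CA1 nuclei. *Clu*, a regulator of the terminal pathway, had 0.89 (SE 0.42, edgeR adjusted p = 0.922), and this value was 0.24 without Arc-veh M3 and 0.09 without nuclei of 3 or more glial transcripts. In Arc-veh M3 *Clu* was at 88.8 CPM, *Aqp4* was at 19.7 CPM and 7 astrocyte markers summed to 882 CPM (94.0 at the lowest in Arc-veh, 171 ± 59.0 in WT-veh).

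Markers of other cell types in CA1 nuclei were compared with the same sums. The 7 oligodendrocyte markers summed to 152 ± 35.2, 116 ± 46.1, 115 ± 33.9 and 165 ± 28.5 CPM (SD, n = 6), with the wild-type groups first and vehicle before PMX205 in each genotype, and the 7 microglial markers to 25.3 ± 6.04, 24.3 ± 2.79, 31.3 ± 11.9 and 37.3 ± 21.8 CPM. The 9 interneuron markers summed to 62.9 ± 12.7, 53.4 ± 18.1, 40.0 ± 9.40 and 46.3 ± 16.3 CPM. The 7 markers of subiculum and cortex summed to 158 ± 81.6, 154 ± 58.5, 167 ± 131 and 157 ± 98.8 CPM, with wells from 69.0 to 416 CPM in Arc-veh. Without the 70 nuclei that held 3 or more glial transcripts, 3 genes were called higher and 1 lower for Arctic minus WT. The part of these transcripts in the results was not tested further.

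Position within CA1 was read from 11 genes with known gradients, of which 9 passed the filter. The 4 of highest level were *Cadps2*, *Astn2*, *Ndst4* and *Htr2c*. After thinning to 2000 transcripts, 517 of 2089 nuclei held *Ndst4*, a heparan sulfate enzyme known from deep CA1 neurons, and 54.5% of these also held *Astn2*, against 25.1% of the 1572 nuclei without *Ndst4*. *Man1a* was found in 71.6% and 51.5% of the same nuclei. *Dcn*, a proteoglycan gene of ventral CA1, was found in 0.387% of nuclei with *Ndst4* and in 4.33% of those without, and *Gpc3*, a glypican gene, in 1.55% and 5.79%. *Calb1*, a calcium buffer of superficial neurons, was found in 5.31% of CA1 nuclei after thinning (27.9% without), below the 13.3% of dentate granule nuclei (45.3% without), and nuclei with *Calb1* held *Ndst4* less often (17.1% against 25.2%). *Man1a* was found in 34.3% of the 99 nuclei with *Gpc3* and in 57.5% of the others. These shares describe nuclei pooled over 24 wells, which are not replicates, and carry no test.

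**Figure D5:**
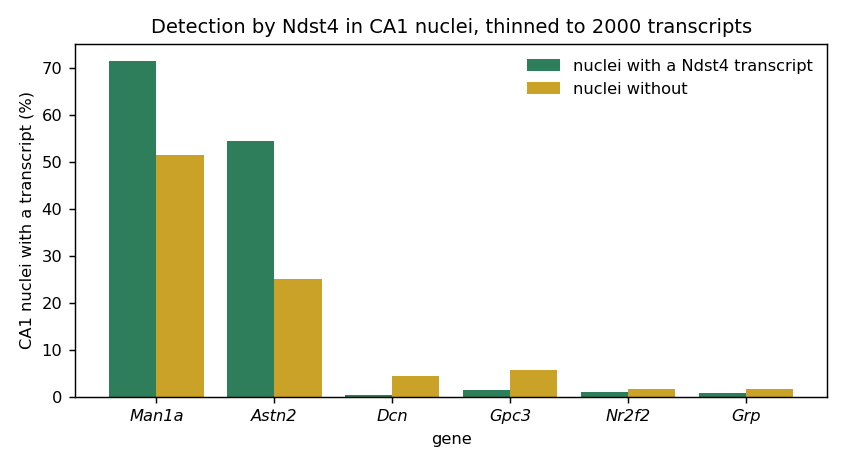
Percentage of CA1 nuclei with at least 1 transcript of each gene (vertical axis), after thinning to 2000 transcripts, in the 517 nuclei with a *Ndst4* transcript (green) and the 1572 without (yellow). *Man1a* (71.6% and 51.5%) and *Astn2* (54.5% and 25.1%) are found more often with *Ndst4*, and *Dcn* (0.387% and 4.33%) and *Gpc3* (1.55% and 5.79%) less often.

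The makeup of CA1 by these genes varied from well to well. *Ndst4* ran from 107 to 322 CPM in WT-veh and from 135 to 213 in Arc-veh, *Gpc3* from 4.65 to 72.8 and from 7.75 to 94.0 CPM, and *Dcn* from 4.65 to 25.9 and from 15.5 to 50.8 CPM. None of the 9 genes was called (0.0218% of all genes were for Arctic minus WT). The list had a median of 0.00 for Arctic minus WT, with *Cadps2* at -0.10 (SE 0.07), *Astn2* at -0.05 (SE 0.13), *Ndst4* at -0.13 (SE 0.16) and *Htr2c* at -0.29 (SE 0.17). The groups overlapped in *Ndst4*, *Gpc3* and *Dcn*.

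Whether the Arctic effect in CA1 differed from that in the dentate gyrus was tested on wells as pairs, with the well as a fixed effect, over 10511 genes. The effect differed for 9 genes (0.0856% of 10511), 4 more positive and 5 more negative in CA1. *Ablim1*, an actin-binding LIM protein, was the one with the smallest adjusted p in CA1 itself, at 108 ± 22.8 CPM (SD, n = 12) in wild-type and 149 ± 29.5 in Arctic wells, with 7 Arctic wells above every wild-type well, and it missed the threshold within CA1 (0.49, SE 0.11, edgeR adjusted p = 0.0950). In dentate nuclei its Arctic effect was -0.03 (SE 0.07), and the difference was 0.51 (SE 0.11, edgeR adjusted p = 0.0451). Against CA3 nuclei, from which no glial nuclei were removed, the difference was 0.58 (SE 0.10, edgeR adjusted p = 0.0175). *Ablim1* was the only one of 11702 genes called there (0.00855%).

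The other 8 genes were not called within CA1, where the 7 that could be tested had an edgeR adjusted p of 0.685 or more. The adhesion genes *Cdh10* and *Il1rapl2* had Arctic effects of -0.16 and 0.40 in CA1 and of -0.83 and -1.14 in dentate nuclei, and *Dchs2* had 0.03 and 1.90. The sodium-activated potassium channel *Kcnt2* had 0.09 and -0.33. For *Plek*, *Colec12* and *Lrmp*, the first known from blood and immune cells, the differences of -1.26, -1.87 and -2.77 were -0.19, -0.12 and 0.00056 when glial nuclei were removed from the dentate set, a version in which 21 of 9376 genes were called (0.224%). *Adamts16* (-1.70) could not be tested in that version. The 9 calls were not stable to the choice of wells: without WT-veh F2, WT-veh M1, WT-PMX F2, WT-PMX M1, Arc-veh F2 or Arc-PMX M1, 0 genes were called in either direction.

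For *Ccnd2*, called within CA1, the test of the difference gave no call. Within the comparison sets the Arctic effect was called for 0.981% of 9781 genes in dentate nuclei, for 0.434% of 8067 without the glial ones and for 0.288% of 12168 in CA3 nuclei. *Ccnd2* had an Arctic effect of -0.92 in CA1, -0.27 (SE 0.12) in dentate and -0.38 (SE 0.10) in CA3 nuclei. The difference from dentate nuclei was -0.67 (SE 0.14, edgeR adjusted p = 0.0557), and that from CA3 nuclei was -0.55 (SE 0.13, edgeR adjusted p = 0.158). The difference passed only against the dentate version without glial nuclei, which was added after the values were seen (-0.75, edgeR adjusted p = 0.0180). As a level, *Ccnd2* in wild-type mice was at 32.7 ± 7.35 CPM in CA1 and 64.6 ± 18.7 CPM in dentate nuclei (SD, n = 12 wells).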

How the data were processed

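Single cells and single nuclei were barcoded by combinatorial indexing and sequenced in 7 sublibraries, and the nuclei of the 24 single-nucleus wells are used here. The deposited values were raw counts of transcripts per gene and nucleus, which the authors made with the split-pipe software on mm10, with bcl2fastq named in the submitters' processing notes. Versions of split-pipe and bcl2fastq are not given in the sources used here. Human APP transcripts have no entry of their own in these counts.

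Counts of CA1 nuclei were summed per well over the sublibraries (271035 to 3949061 transcripts), and genes that passed filterByExpr by group were fitted over all 4 groups with sex as a covariate by edgeR 4.0.16 (TMM normalization, quasi-likelihood test, Benjamini-Hochberg adjustment over all genes tested) in R 4.3.3. The test of a difference between cell types kept the well as a fixed effect. Shares and depths were compared over wells by two-sided permutation tests in scipy 1.17.1, exact for 6 against 6 wells and with 100000 resamples for 12 against 12. P-values measure the spread between wells, each of 1 mouse. Of these tests, only the edgeR test of Arctic minus WT groups was run on simulated counts with planted changes.

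The members and lists were chosen with earlier results of these data known, and the cholesterol and ribosomal RNA lists after their values were seen. Named genes were the markers, *App*, *Xist* and *Ddx3y*, up to 10 called genes per contrast and direction with a mean log2 CPM of at least 3 and the same sign in both sexes, and per list its called members and the 4 of highest level, and some genes that this rule names are not reported here. *Ablim1* and other named genes outside this rule were chosen after their values were seen.

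No doublet caller was run. The rule limits transcripts of other neurons, and the alternatives left out nuclei of 20000 or more transcripts, nuclei with 3 or more glial transcripts and nuclei of 1% or more mitochondrial transcripts (13 nuclei). Other alternatives were DESeq2 1.42.0, RLE size factors, no filter, no covariate, a fit of the compared groups alone, a replicate block, a stricter CA1 rule and each well or sublibrary left out. Same-numbered wells of different groups correlated in their deviations with a median of 0.0445 (-0.348 to 0.438, 36 pairs), against -0.0236 for 72 pairs of different numbers. On these medians the numbers were not taken to pair the wells, which does not settle the point. Of the wells, 14 of 24 correlated best with their own number, and the replicate block was run as an alternative for that reason.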

Additional observations from a re-analysis of the deposited data

Results flagged for a closer look

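Of 100 groups of 6 wells tested for a well far from the others, 7 held one, and chance gives about 1 in 20 groups. *Hmgcs1* was at 0 CPM in Arc-veh F1 with the nearest well at 12.5. *Rnf213* was at 30.5 CPM in Arc-veh F1 (nearest 7.75). *Clu* was at 88.8 CPM in Arc-veh M3 (nearest 15.7) and at 25.9 in Arc-PMX M3 (nearest 10.9). *AY036118*, a transcript linked to ribosomal RNA, was at 6950 CPM in Arc-veh M1 (nearest 2070). *Nr4a3* was at 91.2 CPM in Arc-PMX F3 (nearest 46.6) and *Ndst4* at 358 CPM in Arc-PMX F1 (nearest 190).

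The Arctic effect in CA1 minus that in dentate nuclei passed the test of the difference (edgeR adjusted p from 0.0313 to 0.0451) for *Dchs2* (-1.97), *Lrmp* (-2.77), *Kcnt2* (0.438), *Colec12* (-1.87), *Plek* (-1.26), *Adamts16* (-1.70), *Ablim1* (0.507), *Cdh10* (0.683) and *Il1rapl2* (1.41). Against CA3 nuclei it passed for *Ablim1* (0.575, edgeR adjusted p = 0.0175).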

How the results depend on the processing

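All 180 recomputed share contrasts stayed on the same side of the threshold, with a smallest adjusted p of 0.398. With no filter on low counts, calls were 52 higher and 12 lower for Arc-veh minus WT-veh, 5 and 15 for Arc-PMX minus Arc-veh, 19 and 11 for Arc-PMX minus WT-veh, 7 and 7 for WT-PMX minus WT-veh, 4 and 10 for the difference of the PMX205 effects, 4 and 6 for PMX205 minus vehicle, 2 and 8 for females minus males, 49 and 16 for Arctic minus WT, and 80 and 51 for the Arctic effect in CA1 minus dentate nuclei. DESeq2 called 3 higher and 1 lower for Arc-veh minus WT-veh, 2 higher for Arc-PMX minus WT-veh, and 9 higher and 4 lower for Arctic minus WT. For Arctic minus WT, RLE size factors gave 2 higher, no covariate 3, no nuclei with 3 or more glial transcripts 3, and sublibrary 1, 2 or 5 left out 2. Nuclei under 20000 transcripts alone gave 0 higher and 2 lower, sublibrary 4 left out gave 0 and 0, and the stricter rule gave 0 lower. Each well left out gave 1 to 4 higher and 0 to 4 lower for Arctic minus WT, 0 to 1 in each direction for Arc-veh minus WT-veh, 0 to 1 lower for Arc-PMX minus WT-veh, and 0 to 6 higher and 0 to 7 lower for CA1 minus dentate nuclei. Lower calls were 0 without WT-PMX F1 and 4 without Arc-PMX F1. CA3 in place of dentate nuclei gave 1 higher and 0 lower and turned *Cdh10* (-0.20), *Il1rapl2* (-0.042) and *Dchs2* (0.030), and the dentate rule without glial nuclei, added after the data were seen, gave 15 higher and turned *Lrmp* (0.00056). The cause of these shifts was not tested. The replicate block gave 3 higher and 1 lower for Arctic minus WT and changed no other call count. Of the wells, 14 of 24 correlated best with their own number, where each sex had only 3 numbers to match. This is a hint from the data and not from the design. *Ccnd2* passed in 38 of 41 alternatives (adjusted p from 5.23e-06 to 0.352) and *App* in 18 of 41 (0.000489 to 0.352). Over single genes, 1066 of 1270 values were counted as unchanged. Where a value passed the threshold in either fit, this asked for the same direction and side. Elsewhere it asked for a shift under the standard error, whatever the sign, and 14 values that stayed uncalled shifted by more. The shallowest well summed to 271035 transcripts, and what depth alone limits was not tested.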
